A study of Arabidopsis with 12 samples.

Results

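The genes described here are those of Arabidopsis thaliana whose deposited description names pectin, with QRT1 among them. They were chosen by searching the description column for that word, ignoring case, which found 246 of the 32833 genes in the table. Of these, 98 had at least 1 TPM (a unit of transcript abundance, per length and scaled to the library total) in at least 3 of the 12 libraries, and these were tested with the other genes that met this minimum, 19862 in all. The libraries are mRNA-seq of leaf portions in 4 groups of 3. The phytochrome A mutant phyA-211 was given sucrose in one group and sorbitol in another, and wild-type Col-0 was given sucrose or sorbitol likewise. The seedlings were 10 days old and the sugar was at 30 mM in each group. Every group spent the last 6 h in shade, with a ratio of red to far-red light of 0.17, so the effect of shade itself was not measured. Phytochrome A is the receptor for far-red light.

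Pectin is the galacturonan-rich polysaccharide of the plant primary wall and of the layer that joins neighbouring cells. It is laid down in a highly methylesterified form. Pectin methylesterases remove the methyl groups, proteinaceous inhibitors block these enzymes, polygalacturonases and pectate lyases cut the chain, and pectin acetylesterases remove acetyl groups. QRT1 (QUARTET 1, AT5G55590) is a pectin methylesterase known in Arabidopsis for the separation of the pollen grains of a tetrad.

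The description decides membership, so not every member is an enzyme. The pectin lyase-like superfamily, which holds the chain-cutting enzymes and under which the table also places QRT1, had 42 of its 105 genes tested. The plant invertase/pectin methylesterase inhibitor superfamily is written in 2 ways in the table. The wording without the closing word "protein" covered 34 genes, 16 of them tested. PME12, PME17, PME41 and ATPMEPCRD, the tested genes of that wording that carry a name in the table or in RefSeq, are named as methylesterases. The wording with "protein" covered 75 genes, 22 of them tested, and PMEI6, an inhibitor, is among them. Only the text separates the wordings, so which of the unnamed genes are methylesterases and which are inhibitors is not settled here. Of 12 pectin acetylesterase genes 9 were tested, of 12 genes described directly as pectin methylesterases 6, and of 3 described as inhibitors 1, AT4G12390. The table gives AT4G12390 the symbol PME1, which it also gives to the methylesterase AT1G53840, so the locus is used. The remaining 5 genes are called pectinesterase together with a domain of unknown function, and 2 of them, AT1G02816 and AT4G02370, were tested.

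Of the 148 members below the minimum, 73 were listed at 0 in all 12 libraries and 75 were above 0 in at least 1, with 2.62 TPM as the highest value. Just inside the minimum were PMEI6 (AT2G47670), whose third-highest library had 1.02 TPM, and AT1G23200, with 1.17 TPM. Just outside were AT3G49330, at 0.97 TPM, and QRT3 (AT4G20050), at 0.85 TPM. QRT3 encodes a polygalacturonase that, like QRT1, is required in Arabidopsis for pollen separation.

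Levels of the tested members spanned a wide range, with a median over members of 9.73 TPM as the mean of 12 libraries. There were 16 members above 50 TPM and 33 below 5 TPM, and 73 of the 98 had at least 1 TPM in every library. The acetylesterase PAE7 (AT4G19410) was the most abundant, at 187 TPM on average and 150 to 223 TPM across libraries. It was followed by the pectin lyase-like gene AT4G23820, at 157 TPM, and by the inhibitor-superfamily genes AT1G14890, at 150 TPM, and AT3G49220, at 124 TPM. PMR6 (AT3G54920), a pectate lyase-like gene required for susceptibility to powdery mildew, and the methylesterase PME3 (AT3G14310) were also among the 10 most abundant. PAE7 and PMR6 did not pass any of the tests below. Summed over the 98 members, the level was 2433, 2742 and 3185 TPM in phyA-211 with sucrose, 2219, 2715 and 2493 TPM in phyA-211 with sorbitol, 2612, 2437 and 2270 TPM in Col-0 with sucrose, and 2344, 2297 and 2072 TPM in Col-0 with sorbitol. In this sum phyA-211 with sucrose lay above Col-0 with sorbitol, and the other pairs of groups overlapped.

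The columns summed to between 998274 and 998846 TPM, and 22451 to 22852 genes were above 0 in each library. TPM hold no read counts, so the depth of the libraries is unknown. PHYA, the gene mutated in phyA-211, had 32.5 to 44.9 TPM in phyA-211 libraries and 223 to 385 TPM in Col-0 libraries. The labelled tissue was checked with 4 leaf genes, RBCS1A, CAB1, AS1 and GLK1, which summed to 19113 to 37744 TPM in phyA-211 with sucrose, 30042 to 36359 TPM in phyA-211 with sorbitol, 30741 to 33951 TPM in Col-0 with sucrose and 31621 to 41423 TPM in Col-0 with sorbitol. Most of each sum was CAB1, at 12755 to 30677 TPM, and RBCS1A, at 6269 to 14055 TPM. Of the 4 leaf genes 0 passed the tests below. With each sugar AS1 was lower in phyA-211 at an unadjusted p under 0.05 (limma). One library stood apart: phyA-211 sucrose replicate 3 correlated with its 2 group mates at r = 0.948 and 0.957 across genes, against 0.960 to 0.982 for the other pairs of replicates, and it held the lowest leaf-gene sum. Whether the replicates were grown separately is not stated in the labels, and each p-value therefore reflects the variation among the sequenced samples, part or all of which could be technical.

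QRT1 differed far more between the genotypes than any other member. It had 66.5, 69.7 and 57.2 TPM in phyA-211 with sucrose and 63.8, 61.0 and 73.6 TPM in phyA-211 with sorbitol. In Col-0 it had 0.74, 0.41 and 0.81 TPM with sucrose and 0.08, 0.09 and 0.15 TPM with sorbitol. Every phyA-211 library was thus above every Col-0 library, in which the gene never reached 1 TPM, and QRT1 met the minimum through the phyA-211 libraries alone, so it had to differ.

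On the log2(TPM + 1) scale, which understates the change of genes at low levels, QRT1 was higher in phyA-211 by 5.31 ± 0.14 with sucrose (SE, n = 3 per group; limma adjusted p = 2.27e-09) and by 5.92 ± 0.14 with sorbitol (limma adjusted p = 6.46e-10). With a pseudocount of 0.1 in place of 1 the differences were 6.46 and 8.33. Since the gene entered the test only through the group in which it is high, these p-values are given as a description. An exact two-sided permutation test gave p = 0.1 for each, the smallest value that 3 against 3 libraries allow. Without each of the 12 libraries in turn the log2 difference was 5.20 to 5.39 with sucrose and 5.84 to 5.97 with sorbitol.

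The other quartet genes did not follow QRT1. QRT2 had 0.11, 0.2 and 0.22 TPM in phyA-211 with sucrose and 0.12, 0.65 and 0.49 TPM in phyA-211 with sorbitol, against 0.24, 0.42 and 0.19 TPM in Col-0 with sucrose and 0.19, 0.28 and 0.41 TPM in Col-0 with sorbitol. QRT3 had 0.36 to 0.86 TPM across phyA-211 libraries and 0.14 to 1.02 TPM across Col-0 libraries. Both were below the minimum and were not tested, and their genotype ranges overlapped. The floral-organ genes AP3 and PI together had 0.13 to 1.39 TPM in phyA-211 libraries and 0.22 to 1.1 TPM in Col-0 libraries. The 10 genes next to QRT1 in RefSeq gene order, 5 on each side, included 9 that were tested. With sucrose 1 of these, AT5G55570, passed the genotype test, and it was lower in phyA-211 (2.37 ± 0.67 TPM, against 5.68 ± 1.47 TPM in Col-0; SD, n = 3 each; log2 difference -0.98, limma adjusted p = 0.0419). With sorbitol limma called 0, and 1 had an unadjusted p under 0.05. That 1 was again AT5G55570, with a log2 difference of -0.98 (limma adjusted p = 0.0847). Of all genes tested, 7.4% were called between the genotypes with sucrose and 2.15% with sorbitol.

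**Figure D1:**
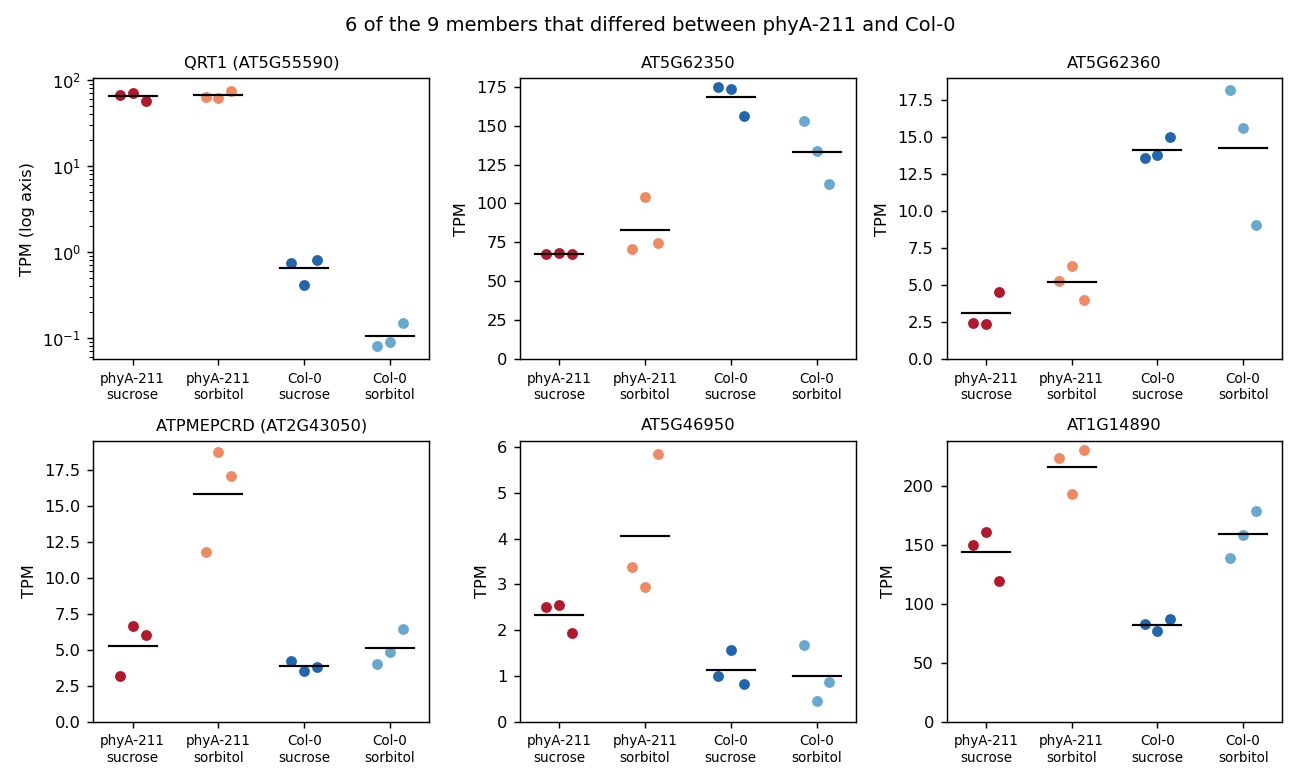
TPM of 6 of the 9 members that passed a genotype test, by group; each point is 1 library, lines are means of 3, and the axis for QRT1 is logarithmic. QRT1 lies between 57.2 and 73.6 TPM in phyA-211 and below 1 TPM in Col-0, AT5G62350 and AT5G62360 are lower in phyA-211, and ATPMEPCRD lies between 11.8 and 18.7 TPM in phyA-211 with sorbitol, above the other groups.

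Apart from QRT1, a few members were called between phyA-211 and Col-0. Counting QRT1, the shares were near those of all genes with sucrose and, on small counts, above them with sorbitol. With sucrose 3 members were higher and 4 lower in phyA-211 (3.06% and 4.08% of the 98), while of all genes tested 7.4% were called, 4.15% and 3.25% in these directions. With sorbitol 3 were higher and 2 lower (3.06% and 2.04%), while 2.15% of all genes were called, 0.775% and 1.38% in these directions. The 3 higher with sorbitol include QRT1 and AT5G46950, which met the minimum only with the phyA-211 libraries. QRT1 is also among the 3 higher with sucrose. The larger share with sorbitol is therefore not read as a trait of the members. Rescaling the libraries by the median of gene ratios gave 1 higher and 6 lower with sucrose, and 3 higher and 3 lower with sorbitol. Among all genes called, those higher made up 39.8% with sucrose and 27.6% with sorbitol after rescaling, against 56.1% and 36.0% before it. The share of all genes called after rescaling is not given here, and the main shares do not apply to the rescaled counts. In total 9 members passed either test, and QRT1, AT5G62350 and AT5G62360 passed both with the same direction. The 2 comparisons share no libraries, though 1 estimate of the spread serves both. In bulk samples, fewer cells of a type and less RNA per cell cannot be told apart.

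AT5G62350 and AT5G62360, which lie side by side in the genome and belong to the inhibitor superfamily, were both lower in phyA-211. AT5G62350, one of the 10 most abundant members, had 67.4, 67.9 and 67.7 TPM in phyA-211 with sucrose, against 175, 173 and 156 TPM in Col-0 with sucrose. With sorbitol it had 70.8, 104 and 74.6 TPM in phyA-211, against 153, 134 and 112 TPM in Col-0. The genotypes did not overlap with either sugar. The log2 difference was -1.30 ± 0.15 with sucrose (limma adjusted p = 0.000406), which held without each library in turn. With sorbitol it was -0.68 (limma adjusted p = 0.0429), and this call was lost in 9 of the 12 fits that left out 1 library.

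AT5G62360 was much less abundant and moved the same way. It had 2.44, 2.36 and 4.53 TPM in phyA-211 with sucrose, against 13.6, 13.8 and 15.04 TPM in Col-0 with sucrose. With sorbitol it had 5.25, 6.28 and 4.02 TPM in phyA-211, against 18.2, 15.7 and 9.07 TPM in Col-0. The log2 difference was -1.92 with sucrose (limma adjusted p = 0.00102) and -1.27 with sorbitol (limma adjusted p = 0.0242). The call with sorbitol was lost in 4 of the 12 fits without 1 library. The third gene of this run, AT5G62340, had 3.27, 3.58 and 4.27 TPM in phyA-211 with sucrose, against 2.83, 1.24 and 8.19 TPM in Col-0 with sucrose, and the groups overlapped. Reads of such neighbouring copies could be divided between them by the counting used upstream, so the split within the run is uncertain.

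ATPMEPCRD (AT2G43050), a methylesterase gene by its symbol, differed between the genotypes with sorbitol. It had 3.16, 6.63 and 6.01 TPM in phyA-211 with sucrose and 11.8, 18.7 and 17.1 TPM in phyA-211 with sorbitol, against 4.25, 3.5 and 3.8 TPM in Col-0 with sucrose and 4.01, 4.85 and 6.44 TPM in Col-0 with sorbitol. The phyA-211 libraries with sorbitol were above all others. The log2 genotype difference was 1.46 ± 0.25 with sorbitol (limma adjusted p = 0.0091) and 0.32 with sucrose (limma adjusted p = 0.45). Leaving out Col-0 sorbitol replicate 1 gave an adjusted p of 0.0592, and leaving out phyA-211 sorbitol replicate 3 gave 0.0578. The test of the difference between the genotypes' sugar responses gave -1.14 ± 0.35 with an unadjusted p of 0.00677 and a limma adjusted p of 0.999, so that difference did not pass.

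The other genotype calls were of 4 genes described as inhibitor-superfamily members and of AT4G12390, described by name as an inhibitor. With sorbitol AT5G46950 was higher in phyA-211 at 3.37, 2.94 and 5.86 TPM, against 1.67, 0.45 and 0.86 TPM in Col-0 (log2 difference 1.35, limma adjusted p = 0.0233), a call lost in 4 fits without 1 library. It reached 1 TPM in every phyA-211 library, but in Col-0 only at 1.57 TPM with sucrose and 1.67 TPM with sorbitol. AT5G46950 thus met the minimum only with the phyA-211 libraries, so its p-value is given as a description. It lies in a run of similar genes, and its neighbour AT5G46960 averaged 29.9 ± 21.2 TPM in phyA-211 and 6.42 ± 2.97 TPM in Col-0 with sorbitol (SD, n = 3 each), which did not pass (limma adjusted p = 0.0504). With sucrose AT1G14890 had 150, 161 and 120 TPM in phyA-211, against 83.1, 76.8 and 86.8 TPM in Col-0 (log2 difference 0.79, limma adjusted p = 0.00559). That call gave an adjusted p of 0.0508 after the median-ratio rescaling, with a difference of 0.67.

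The remaining calls with sucrose were each lost in 4 or more fits without 1 library. AT4G25260 had 97.1, 108 and 110 TPM in phyA-211, against 73.2, 76.6 and 88.1 TPM in Col-0 (log2 difference 0.41, limma adjusted p = 0.0441), a call lost in 9 of 12 fits without 1 library. AT1G23205 was lower at 2.13, 2.41 and 4.03 TPM, against 8.56, 9.33 and 8.97 TPM (log2 difference -1.40, limma adjusted p = 0.0303), lost in 5. AT4G12390, the only tested gene described by name as a methylesterase inhibitor, was lower at 15.1, 13.8 and 19.4 TPM in phyA-211, against 24.3, 26.4 and 28.8 TPM in Col-0 (log2 difference -0.70, limma adjusted p = 0.028), lost in 4. None of the 6 genes described by name as methylesterases and none of the 9 acetylesterases passed a genotype test. Of the acetylesterases 2 were higher at an unadjusted p under 0.05 with sucrose, and with sorbitol 1 was higher and 1 lower.

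More members were called for sucrose against sorbitol than for genotype. In phyA-211 25 members rose and 8 fell with sucrose (25.5% and 8.16% of the 98), while 27.5% of all genes tested were called, 16.9% and 10.5% in these directions. In Col-0 12 rose and 4 fell (12.2% and 4.08%), while 22.1% of all genes were called, 12.1% and 9.95% in these directions. The share that rose in Col-0 was thus near that of all genes. The median log2 change was 0.27 over the members and 0.11 over all genes in phyA-211, and 0.30 over the members and 0.08 over all genes in Col-0. Rescaling by the median of gene ratios moved the median of all genes to -0.02 in phyA-211 and to -0.01 in Col-0. The members then called were 22 higher and 12 lower in phyA-211 and 20 higher and 6 lower in Col-0. Among all genes called, rises made up 48.4% in phyA-211 and 45.9% in Col-0 after rescaling, against 61.6% and 55.0% before it. The main shares of all genes therefore do not apply to the rescaled counts.

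The counts depended on single libraries. The share of all genes called in the same fits is not given here, so the shifts are not read as a trait of the members. In phyA-211 the members that rose numbered 4 without sorbitol replicate 3, 7 without sorbitol replicate 1, 15 without sucrose replicate 2 and 12 without sucrose replicate 3, the library that stood apart, and those that fell numbered 4 without sorbitol replicate 3. In Col-0 the members that rose numbered 5 without sorbitol replicate 3, without sucrose replicate 1 or without sucrose replicate 2, 7 without sorbitol replicate 2, and 20 without phyA-211 sucrose replicate 3, which enters the shared estimate of the spread. Those that fell in Col-0 numbered 2 without sorbitol replicate 3 or without sucrose replicate 1. The directions of the families below come from calls counted with all 12 libraries.

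Some members were called in both genotypes. There were 8 members that rose in both, which is 32% of those that rose in phyA-211 and 66.7% of those that rose in Col-0, while over all genes these shares were 56.8% and 79.1%. They were PME12, PME41, AT5G64640, AT5G20740, AT3G62820 and the pectin lyase-like genes AT1G04680, AT4G24780 and AT5G19730. Another 4 fell in both, 50% of those that fell in phyA-211 and 100% of those that fell in Col-0, against 63.4% and 67.2% over all genes, and no member was called in opposite directions. No member passed the test of the difference between the 2 sugar responses (limma; 6 had an unadjusted p under 0.05, 2 higher and 4 lower), and 0.0101% of all genes did.

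**Figure D2:**
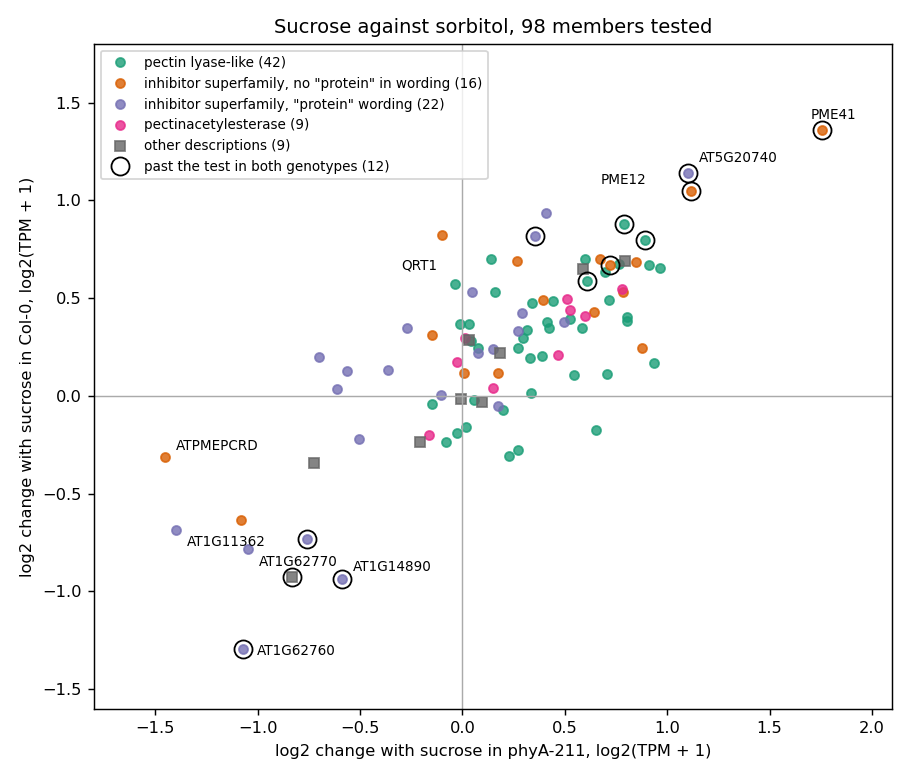
Log2 change with sucrose against sorbitol for the 98 members, in phyA-211 (horizontal axis) and in Col-0 (vertical axis), on the log2(TPM + 1) scale; colours give the description family and rings mark the 12 members that passed the test in both genotypes. PME41 lies farthest to the upper right and AT1G62760 lowest, while QRT1 lies near 0 in phyA-211 at 0.57 in Col-0.

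The calls were counted by family, against 16.9% of all genes called higher and 10.5% lower in phyA-211, and 12.1% higher and 9.95% lower in Col-0. Of the 42 pectin lyase-like genes 13 rose with sucrose in phyA-211 (31.0%) and 6 in Col-0 (14.3%, near the share of all genes), and 0 fell in either by limma's adjusted p, with 0 lower at an unadjusted p under 0.05 too. Of the 16 inhibitor-superfamily genes of the wording without "protein", 6 rose and 1 fell in phyA-211, and 3 rose and 0 fell in Col-0. Of the 22 of the wording with "protein", 2 rose and 5 fell in phyA-211, and 2 rose and 3 fell in Col-0. Of the 9 acetylesterases 3 rose in phyA-211 and 0 in Col-0, where 3 had an unadjusted p under 0.05. The 2 tested genes with a domain of unknown function both fell in phyA-211, and AT1G02816 fell in Col-0 as well. A difference between families was not tested.

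**Figure D3:**
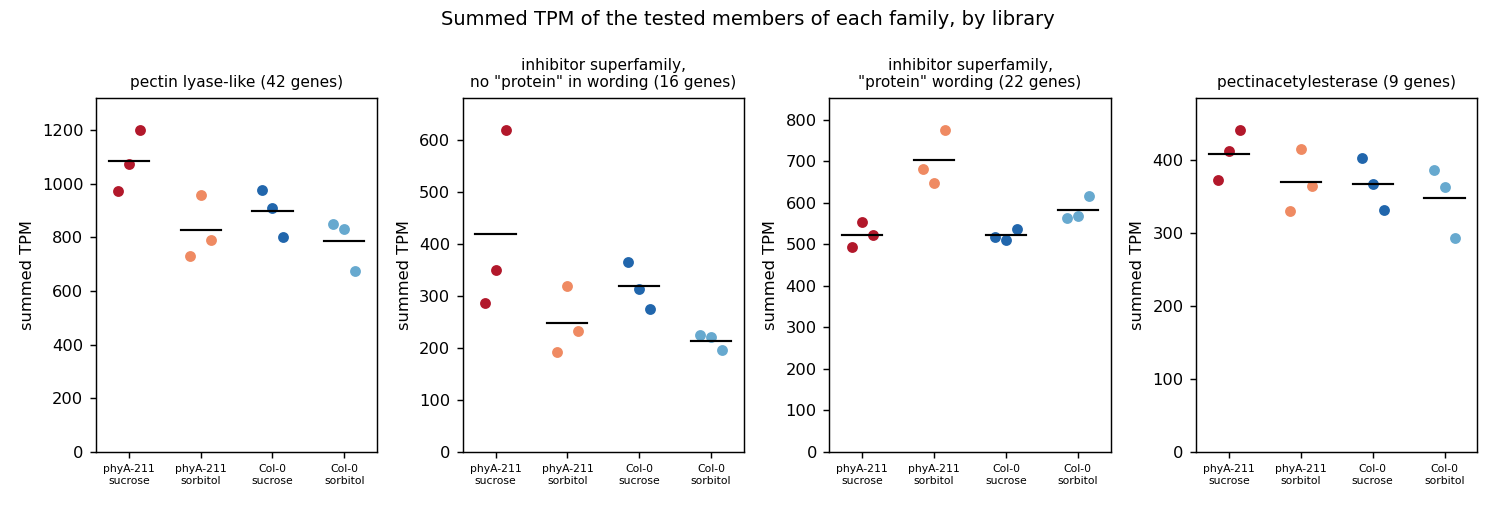
Summed TPM of the tested genes of 4 description families in each library (points), with the mean of 3 per group (lines); the 2 superfamily panels are split by the wording of the description alone, which does not settle which genes are methylesterases and which inhibitors. The sum of the "protein" wording is 492 to 555 TPM in phyA-211 with sucrose and 648 to 775 TPM in phyA-211 with sorbitol, and 1 phyA-211 sucrose library is high for the wording without it.

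Among the methylesterases, PME41 (AT4G02330) and PME12 (AT2G26440) had the largest rises with sucrose in phyA-211. PME41 had 14.95, 18.8 and 73.9 TPM in phyA-211 with sucrose, against 7.08, 8.45 and 7.05 TPM with sorbitol, and in Col-0 it had 20.0, 16.9 and 11.99 TPM with sucrose, against 5.76, 6.01 and 5.11 TPM with sorbitol. No sucrose library overlapped the sorbitol libraries of its genotype, and phyA-211 sucrose replicate 3 was far above the rest. The log2 change was 1.76 in phyA-211 (limma adjusted p = 0.0144) and 1.36 in Col-0 (limma adjusted p = 0.0454). The call in Col-0 was lost in 9 fits without 1 library. The call in phyA-211 was lost without phyA-211 sorbitol replicate 3 (limma adjusted p = 0.0533) and in the fit of the 2 groups compared (0.0682). Without phyA-211 sucrose replicate 3 the change was 1.06 in phyA-211 (adjusted p = 0.00663) and 1.36 in Col-0 (adjusted p = 0.000339).

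PME12 showed the same arrangement of libraries. It had 24.2, 25.5 and 71.6 TPM in phyA-211 with sucrose, against 14.95, 16.8 and 15.7 TPM with sorbitol, and 24.4, 18.5 and 16.7 TPM in Col-0 with sucrose, against 8.0, 9.11 and 9.87 TPM with sorbitol. The log2 change was 1.12 in phyA-211 (limma adjusted p = 0.0252) and 1.05 in Col-0 (limma adjusted p = 0.037), and the call in Col-0 was lost in 7 fits without 1 library. The call in phyA-211 was lost without phyA-211 sorbitol replicate 1 (limma adjusted p = 0.0697) or replicate 3 (0.0758). It was also lost in the fit of the 2 groups compared (limma adjusted p = 0.0912). Without phyA-211 sucrose replicate 3 the change in phyA-211 was 0.62 (adjusted p = 0.0239). AT3G10720 was also high in that library, at 208 TPM, against 75.9 and 90.5 TPM in the other two of its group and 51.5 to 78.3 TPM in phyA-211 with sorbitol. Its rise of 0.88 in phyA-211 (limma adjusted p = 0.0472) was 0.44 without that library (adjusted p = 0.0964) and was not called.

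The genes described by name as methylesterases were less uniform. PME44 (AT4G33220) rose in the mutant, with 53.5, 62.5 and 99.2 TPM with sucrose, against 32.3, 48.6 and 39.3 TPM with sorbitol (log2 change 0.79, limma adjusted p = 0.0297), and in Col-0 its change of 0.69 had an adjusted p of 0.0575. PME3 rose in wild type, with 103, 94.6 and 94.1 TPM with sucrose, against 69.0, 76.7 and 43.7 TPM with sorbitol (log2 change 0.65, limma adjusted p = 0.0447), and in phyA-211 its change of 0.59 had an adjusted p of 0.0564. The PME44 call was lost in 3 fits without 1 library and the PME3 call in 7. PME1 (AT1G53840), PME2, PME31 and PMEPCRF passed neither test, and PME31 (AT3G29090) stayed between 19.8 and 26.7 TPM in all 12 libraries.

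The pectin lyase-like genes that rose in both genotypes were changed by similar amounts. AT1G04680 had 53.2, 63.1 and 73.2 TPM in phyA-211 with sucrose, against 30.4, 44.5 and 34.0 TPM with sorbitol, and 85.0, 81.2 and 67.1 TPM in Col-0 with sucrose, against 48.4, 46.1 and 32.2 TPM with sorbitol. Its log2 change was 0.79 in phyA-211 (limma adjusted p = 0.0121) and 0.88 in Col-0 (limma adjusted p = 0.00756). AT4G24780 changed by 0.89 in phyA-211 and 0.80 in Col-0, and AT5G19730 by 0.61 and 0.59. The sucrose libraries of all these genes were above the sorbitol libraries of the same genotype. AT5G19730 and AT5G20740 were the members whose rise was called in both genotypes under all leave-outs and settings tried.

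Among the genes called in phyA-211 alone, AT1G10640 rose by 0.93 (limma adjusted p = 0.0454, lost in 8 fits without 1 library), AT3G27400 by 0.91 (0.0215), AT4G13710 by 0.81 (0.0164) and the abundant AT4G23820 by 0.54 (0.0205). The AT3G27400 call was lost in 4 such fits, and the AT4G13710 and AT4G23820 calls in 3 each. In Col-0 AT3G15720 rose by 0.70 (limma adjusted p = 0.0299, lost in 4 such fits) and AT3G09540 by 0.70 (0.0424, lost in 8). These one-genotype calls are not differences between the genotypes, since no member passed that test. QRT1 itself rose in Col-0 by 0.57 (limma adjusted p = 0.013) while staying under 1 TPM, and its call gave an adjusted p of 0.0799 in a fit of the 2 Col-0 groups alone. QRT1 entered this test through its phyA-211 libraries alone. It is counted among the 12 members and the 6 pectin lyase-like genes that rose in Col-0. In phyA-211 it changed by -0.04 (limma adjusted p = 0.866). Without QRT1 the pectin lyase-like genes summed to 908, 1006 and 1144 TPM in phyA-211 with sucrose and 666, 898 and 717 TPM in phyA-211 with sorbitol, against 978, 909 and 802 TPM in Col-0 with sucrose and 851, 833 and 674 TPM in Col-0 with sorbitol.

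The 3 acetylesterase genes that rose in phyA-211 did so by less than 1 log2 unit. PAE3 (AT2G46930) had 17.1, 17.8 and 22.4 TPM in phyA-211 with sucrose, against 10.4, 14.9 and 13.7 TPM with sorbitol (log2 change 0.53, limma adjusted p = 0.0251). PAE6 (AT3G62060) changed by 0.47 in phyA-211 (limma adjusted p = 0.0191), and AT5G26670 by 0.78 (limma adjusted p = 0.0126). In Col-0 their changes of 0.44, 0.21 and 0.54 did not pass. The PAE3 and PAE6 calls in phyA-211 were lost in 3 fits without 1 library each, and the AT5G26670 call in 1. Fitting only the 2 groups compared gave limma adjusted p = 0.0846 for PAE3 and 0.0667 for PAE6. After median-ratio rescaling the PAE6 change in phyA-211 was 0.33 (limma adjusted p = 0.0997).

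**Figure D4:**
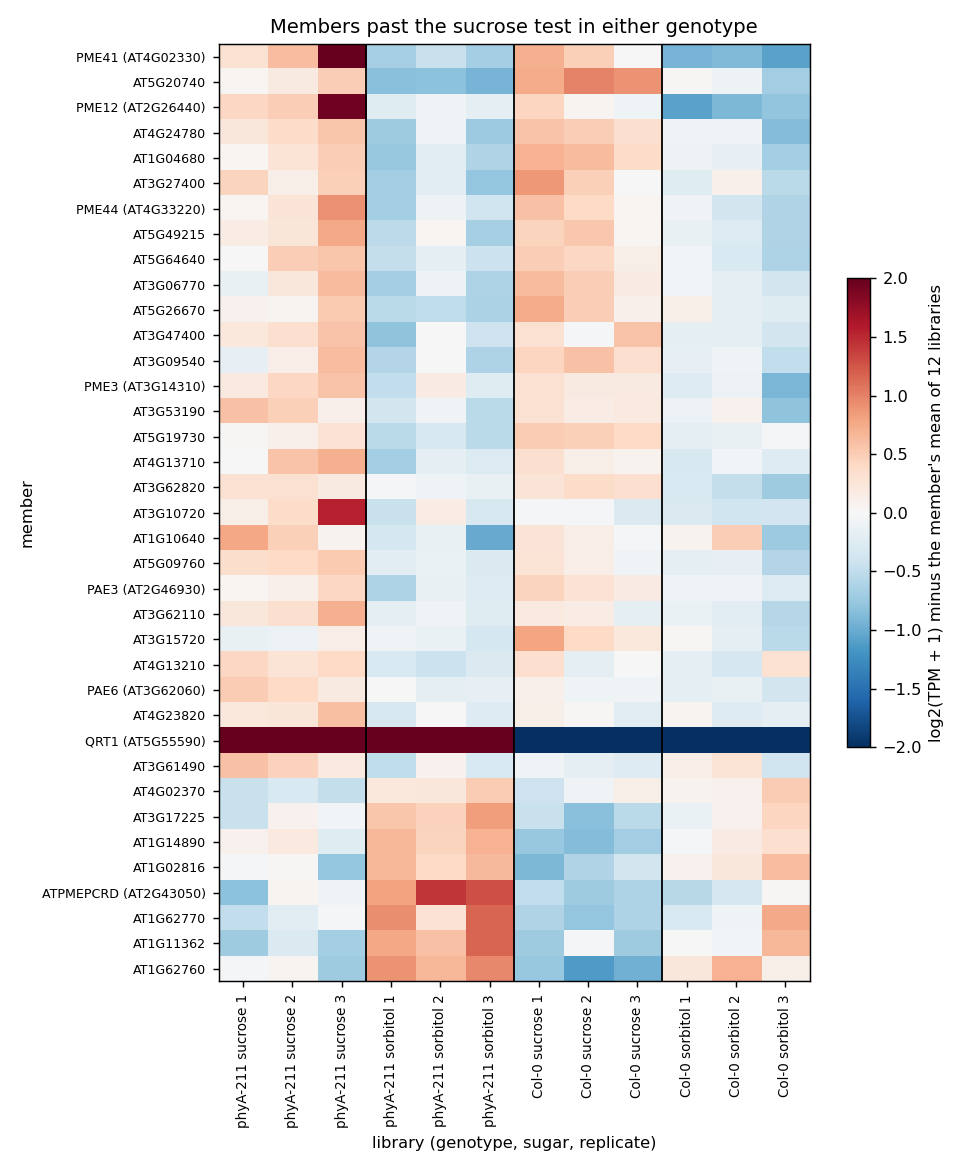
The 37 members that passed a sucrose test in either genotype (rows) in the 12 libraries (columns); colour is log2(TPM + 1) minus the mean of that gene over the 12 libraries, limited to the range from -2 to 2. Rises fill the upper rows in the sucrose columns of both genotypes, falls the lowest rows, and QRT1 separates by genotype.

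The members that fell with sucrose came mainly from the inhibitor superfamily. AT1G62760 had 3.75, 4.05 and 1.98 TPM in phyA-211 with sucrose, against 8.1, 6.73 and 8.45 TPM with sorbitol, and 1.89, 1.22 and 1.51 TPM in Col-0 with sucrose, against 4.72, 6.87 and 4.29 TPM with sorbitol. Its log2 change was -1.07 in phyA-211 (limma adjusted p = 0.00742) and -1.30 in Col-0 (limma adjusted p = 0.00304), and both calls held without each library in turn. Its neighbour AT1G62770 was far more abundant. AT1G62770 had 66.2, 79.7 and 91.1 TPM in phyA-211 with sucrose, against 179, 115 and 210 TPM with sorbitol (log2 change -1.05, limma adjusted p = 0.016), while in Col-0 its change of -0.78 had an adjusted p of 0.0567.

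AT1G14890, the most abundant gene of the superfamily, fell in both genotypes. It had 150, 161 and 120 TPM in phyA-211 with sucrose, against 223, 193 and 230 TPM with sorbitol, and 83.1, 76.8 and 86.8 TPM in Col-0 with sucrose, against 139, 158 and 179 TPM with sorbitol. The log2 change was -0.59 in phyA-211 (limma adjusted p = 0.0112) and -0.93 in Col-0 (limma adjusted p = 0.0016). AT1G11362, at or below 0.5 TPM in phyA-211 with sucrose and 1.74 to 3.08 TPM with sorbitol, fell by 1.40 on the log2 scale (limma adjusted p = 0.00602). AT3G17225 fell in both genotypes, by 0.76 in phyA-211 (limma adjusted p = 0.027) and by 0.73 in Col-0 (limma adjusted p = 0.0352), calls lost in 4 and 5 fits without 1 library. It averaged under 2 TPM in both Col-0 groups. With a pseudocount of 0.1 its change in phyA-211 was -1.23 (limma adjusted p = 0.0573). Fitting only the 2 groups compared gave limma adjusted p = 0.0614 in phyA-211 and 0.0501 in Col-0.

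Not every gene of the wording with "protein" fell. AT5G20740 had 9.48, 10.52 and 13.3 TPM in phyA-211 given sucrose, against 4.71, 4.75 and 4.33 TPM given sorbitol. In Col-0 it had 16.1, 19.3 and 17.9 TPM given sucrose, against 9.29, 8.42 and 5.3 TPM given sorbitol, and the sugars did not overlap in either genotype. It rose by 1.102 on the log2 scale in phyA-211 (limma adjusted p = 0.00343) and 1.14 in Col-0 (limma adjusted p = 0.00239). AT3G62820 rose by 0.35 in phyA-211 (limma adjusted p = 0.0379) and by 0.82 in Col-0 (limma adjusted p = 0.00128). The call in phyA-211 was lost in 7 of 12 fits without 1 library, and median-ratio rescaling gave 0.21 there (adjusted p = 0.254). The difference between these 2 responses was -0.46, with an unadjusted p of 0.0133 and an adjusted p of 0.999.

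ATPMEPCRD was the only gene called with the other wording that fell, by 1.45 on the log2 scale in phyA-211 (limma adjusted p = 0.00347). In Col-0 its change of -0.31 did not pass. The 2 genes with a domain of unknown function fell as well. AT4G02370 had 31.0, 34.0 and 30.1 TPM in phyA-211 with sucrose, against 49.2, 49.6 and 61.0 TPM with sorbitol (log2 change -0.72, limma adjusted p = 0.00932), and AT1G02816 changed by -0.83 in phyA-211 and -0.93 in Col-0 (limma adjusted p = 0.0182 and 0.0124).

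Root marker genes were examined beside these results, 8 in number, of which 6 were tested. They summed to 866 to 1229 TPM in phyA-211 with sucrose, 820 to 1903 TPM in phyA-211 with sorbitol, 1269 to 1454 TPM in Col-0 with sucrose and 690 to 1182 TPM in Col-0 with sorbitol. Most of each sum was the root gene PYK10, at 646 to 1799 TPM. Less abundant root genes were uneven within groups. CASP1 had 8.76, 29.8 and 15.9 TPM in phyA-211 with sorbitol. PRP3 had 2.2, 30.0 and 7.8 TPM there, and 23.3, 4.73 and 33.8 TPM in Col-0 with sucrose. The aquaporin gene TIP2;3 fell with sucrose in phyA-211 by 1.98 on the log2 scale (limma adjusted p = 0.0411), and 0 of the others passed any test, adjusted or at an unadjusted p under 0.05. Of 4 meristem genes 2 were tested and 0 passed (limma), with 1 at an unadjusted p under 0.05 in Col-0. Their part in the results was not tested.

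Some genes that make pectin rose with sucrose. Of 24 listed genes of pectin synthesis, all tested, 12 rose in phyA-211 and 5 in Col-0, where 16.9% and 12.1% of all genes rose, and 0 fell by limma's adjusted p or at an unadjusted p under 0.05. Their median log2 change was 0.61 in phyA-211 and 0.32 in Col-0. RHM1, which makes the rhamnose donor of rhamnogalacturonan, had 131, 148 and 280 TPM in phyA-211 with sucrose, against 58.2, 76.0 and 67.1 TPM with sorbitol, and 241, 217 and 170 TPM in Col-0 with sucrose, against 84.8, 83.8 and 71.5 TPM with sorbitol. It rose by 1.38 ± 0.24 in phyA-211 (limma adjusted p = 0.00408) and by 1.37 ± 0.24 in Col-0 (limma adjusted p = 0.00339). RHM1 passed in both genotypes without each library in turn.

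GAUT7, which anchors the galacturonosyltransferase complex, rose by 0.73 in phyA-211 (limma adjusted p = 0.00608) and by 0.49 in Col-0 (limma adjusted p = 0.0302). CGR3, a Golgi methyltransferase of pectin, rose by 0.71 in phyA-211 (limma adjusted p = 0.00634) and by 0.53 in Col-0 (limma adjusted p = 0.0221). AT3G49720 rose by 0.73 in phyA-211 and 0.48 in Col-0, and AT5G15740 by 0.95 and 0.87. With either sugar no synthesis gene passed the genotype test (limma), and 2 with sucrose and 1 with sorbitol had an unadjusted p under 0.05 in the higher direction. These counts also depended on single libraries, and the share of all genes called in the same fits is not given here. The count in phyA-211 was 7 without sucrose replicate 3, sorbitol replicate 1 or sorbitol replicate 3. The count in Col-0 was 1 without sorbitol replicate 3, sucrose replicate 1 or sucrose replicate 2, 3 without sorbitol replicate 1 or 2, and 10 without phyA-211 sucrose replicate 3.

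**Figure D5:**
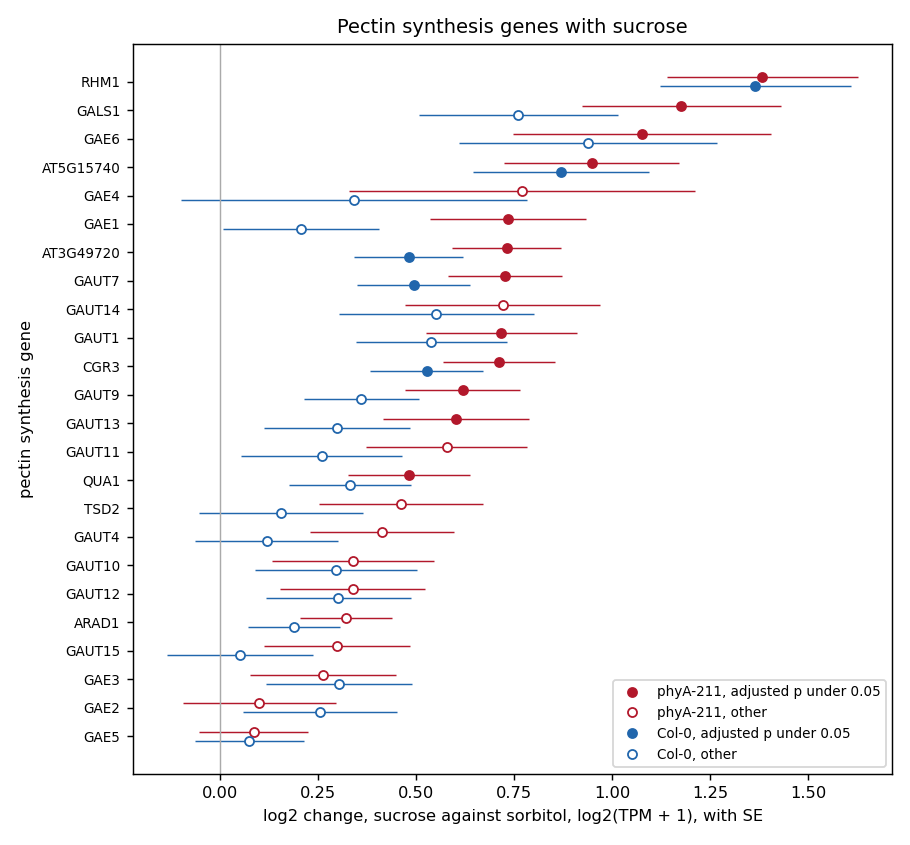
Log2 change with sucrose against sorbitol, with SE, of the 24 pectin synthesis genes in phyA-211 (upper point of each pair) and Col-0 (lower point); filled points have an adjusted p under 0.05. Every point lies above 0 and RHM1 has the largest change in both genotypes, 1.38 and 1.37.

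Receptor kinases that bind pectin or watch the wall were also listed. Of 8, 5 were tested, and 3 rose with sucrose in phyA-211 and 0 in Col-0, where 1 had an unadjusted p under 0.05. WAK2 had 10.1, 10.0 and 20.0 TPM in phyA-211 with sucrose, against 3.2, 5.61 and 3.5 TPM with sorbitol (log2 change 1.45, limma adjusted p = 0.00649), and 4.36, 4.4 and 3.94 TPM in Col-0 with sucrose. With sucrose WAK2 was higher in phyA-211 than in Col-0 by 1.39 (limma adjusted p = 0.0154) and WAK1 by 1.30 (limma adjusted p = 0.00604). WAK1 rose with sucrose in phyA-211 by 0.96 (limma adjusted p = 0.0123) and THE1 by 0.71 (limma adjusted p = 0.0378), a call lost in 9 of 18 alternative fits. The WAK genes are close copies in a row, so reads could be divided between them, and the WAK2 genotype call was lost without Col-0 sucrose replicate 2 or replicate 3.

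Polygalacturonase-inhibiting proteins, which block chain cutting and are not called pectin genes in the table, fell with sucrose. PGIP1 had 51.3, 54.9 and 48.0 TPM in phyA-211 with sucrose, against 117, 215 and 147 TPM with sorbitol, and 43.2, 29.4 and 43.5 TPM in Col-0 with sucrose, against 70.0, 109 and 99.1 TPM with sorbitol. It fell by 1.57 in phyA-211 (limma adjusted p = 0.00256) and by 1.24 in Col-0 (limma adjusted p = 0.00402) on the log2 scale, in every fit without 1 library. PGIP2 changed by -0.95 in phyA-211 (limma adjusted p = 0.0399) and by -0.94 in Col-0 (limma adjusted p = 0.0464), and these calls were lost in 10 and 8 of the alternative fits. Whether PGIP1 and PGIP2 shared reads was not tested. The polygalacturonase gene PGAZAT (AT2G41850), singled out after its values were seen, had 64.8, 96.7 and 161 TPM in phyA-211 with sorbitol, against 17.1, 9.01 and 38.2 TPM in Col-0 with sorbitol. That is a log2 difference of 2.40 ± 0.54 (limma adjusted p = 0.0458), and the groups did not overlap. The call was lost in 11 of 18 alternative fits, and with sucrose the difference did not pass.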

How the data were processed

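Messenger RNA captured on oligo(dT) beads was sequenced in 12 libraries, per the labels' protocols. The authors deposited 1 table of TPM per gene, per the file headers. Read trimming, alignment and testing tools (cutadapt, fastp, DESeq2, HISAT2) and the build TAIR10 are listed per the submitters' processing notes, and the program that gave the TPM is not given in the sources used here. A linear model with 1 mean per group was fitted in limma 3.58.1 (R 4.3.3) to log2(TPM + 1), with moderated variances that follow a mean trend and 8 residual degrees of freedom. Genes with at least 1 TPM in at least 3 libraries were tested, p-values were adjusted by Benjamini and Hochberg over all genes tested, and 0.05 was the threshold. The fit was tested on simulated data. Alternatives were a smaller pseudocount, no filter, median-ratio rescaling, library weights, a replicate block, the compared groups alone, and leaving out each library. Names came from the table and, for all 98 members, a RefSeq table of assembly TAIR10.1, used for names and gene order only. No sequences were used here. Genes named were QRT1, the 10 most abundant members, the 4 nearest the minimum, in each comparison the 10 strongest called changes each way among members averaging at least 2 TPM in a group, the 3 of smallest p for the difference between responses, and up to 3 genes per list and sugar comparison. Others, among them QRT2, neighbouring genes and receptor and PGAZAT genotype values, were chosen after their values were seen. The members and lists were chosen with earlier results of these data known.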

Additional observations from a re-analysis of the deposited data

How the results depend on the processing

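Direction was kept by all called members in every fit. The 2 values that turned were the change of QRT1 with sucrose in phyA-211, never called, which was 0.04 without phyA-211 sorbitol replicate 3 and 0.046 without phyA-211 sucrose replicate 3, in a range from -0.094 to 0.046 over the fits without 1 library. Library weights, whose estimation stopped before it converged, gave 64 rises and 21 falls with sucrose in phyA-211 and 38 and 12 in Col-0. Between genotypes they gave 64 higher and 27 lower with sucrose, 24 and 24 with sorbitol, and 36 and 17 for the difference between the responses. The share of all genes called with these weights is not given here, so these counts are not read as a trait of the members. The cause was not tested. Median-ratio rescaling gave 20 rises in Col-0 and 1 member higher between genotypes with sucrose. Fitting only the 2 groups compared gave 10 rises in phyA-211 and 0 members lower with sorbitol, and testing without the filter gave 1 lower there. The share of all genes called under these settings is not given here either. Over fits without 1 library, rises and falls ranged from 4 to 34 and 4 to 10 in phyA-211, 5 to 20 and 2 to 5 in Col-0, members higher and lower in phyA-211 from 2 to 4 and 2 to 5 with sucrose and 1 to 6 and 0 to 3 with sorbitol, and both were 0 for the difference between the responses. Those fits kept 575 gene results, lost 179 calls and turned 2, and the share of all genes called in them is not given here. Whether the replicate numbers pair the samples was not settled. Same-numbered libraries correlated from -0.131 to 0.310 in their deviations, and libraries of different numbers from -0.293 to 0.211. With replicate number as a block, 7 calls were lost, 1 member instead of 2 was lower in phyA-211 with sorbitol, and QRT1 stayed called. TPM give no depth, so no limit of detection can be stated.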
